A study of Rattus norvegicus with 9 samples.

Results

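A set of 51 genes had at least 2 times the TPM in HBZY-1 cells given a leech extract that they had in both control cells and an LPS-induced model, while the model itself stayed nearer to control. HBZY-1 cells are a cultured rat line derived from kidney mesangium. The series holds 9 RNA-seq libraries in 3 groups of 3, namely control, LPS-induced model, and high-dose water extract made from lyophilized powder of Poecilobdella manillensis. Poecilobdella manillensis is a leech that feeds on blood. It is not stated whether cells given extract were also given LPS, what the controls received, the dose or the exposure time. They call the replicates biological without naming separate cultures, so p-values measure only the spread between these libraries, which may be technical. All libraries come from 1 cell line.

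The members were chosen from the deposited gene TPM, which expresses a gene's part of the library's transcripts out of 1000000. Levels were taken as log2(TPM + 1) and averaged per group. A member averaged 1 TPM or more across the 9 libraries, exceeded control and LPS by at least 1 on this scale, had all 3 extract values above the 6 others, and had less than 1 between LPS and control. Of 30560 genes in the table, 12192 reached that mean and 51 met every criterion. The mirror rule, for genes lowered only in extract cells, was met by 86 genes. Since the rule used all 9 libraries and all 3 differences, the gene levels below are a description and carry no test. A difference on this scale understates the change of a gene with low TPM.

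Mesangial cells hold the capillary loops of the kidney's filter together, contract, and produce the matrix between the loops. They carry receptors for LPS, a component of the bacterial outer membrane, and answer it with inflammatory mediators. The series is concerned with TXNIP, a thioredoxin-binding protein, and NLRP3, the sensor of an inflammasome that matures interleukin-1 family cytokines. Genes that stand apart only in extract cells are those for which that group departs from control without a like departure in the model. Genes carry Ensembl identifiers in the files, with no symbols beside them. None of the 12192 tested genes could be matched to a symbol. Every member has an identifier, but for brevity 2 members are given by identifier and the others by rank. The functions of the members, their promoters and the markers of mesangial and other cell types were not analysed here.

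Members were ranked by the smaller of their extract-control and extract-LPS differences. Among all 12192 genes, both differences reached 1 in 90 genes, or 0.738%, and all 3 extract values exceeded the 6 others in 21.5%. Of the 90 genes, 30 had overlapping values, 20 of them with a 0 in at least 1 extract library, and 9 more had LPS and control at least 1 apart. By limma, 22.3% of tested genes were higher in extract than in control cells and 34.4% higher in extract than in LPS cells, at an adjusted p below 0.05. These shares are the setting in which the rule chose its members and are no result about them. The median member had an extract-control difference of 1.23 and an extract-LPS difference of 1.5, where the medians over all tested genes were -0.04 and 0.04. Many members lay near the threshold: the smaller difference was under 1.2 in 23 members, at least 1.5 in 11, at least 2 in 8 and at least 3 in 3.

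**Figure D1:**
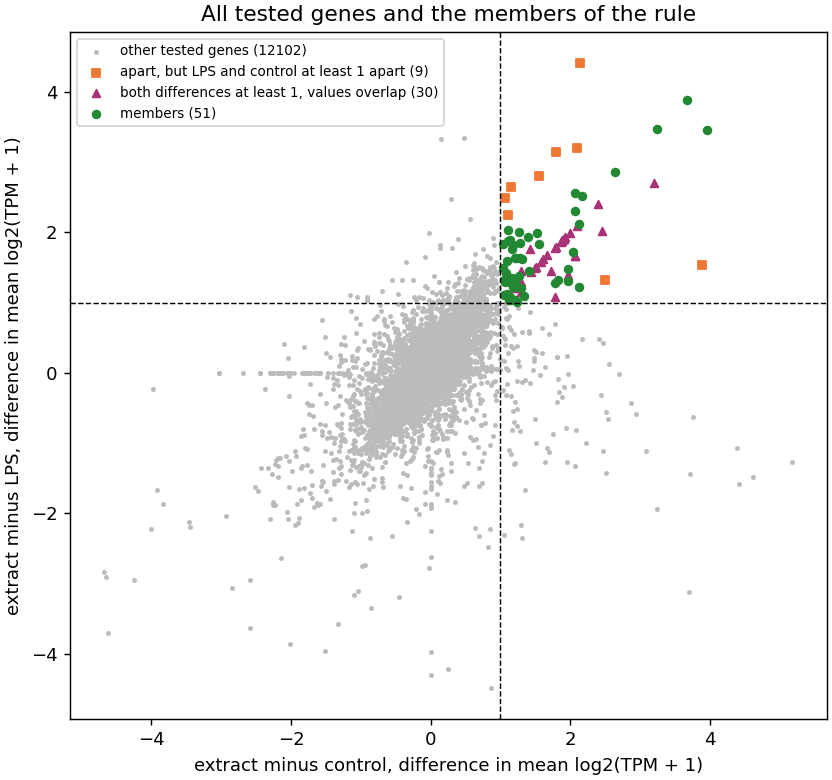
Each point is a tested gene, with its extract-control difference on the horizontal axis and its extract-LPS difference on the vertical axis, both in mean log2(TPM + 1). The 51 members fill the upper right corner past the dashed lines at 1, many of them close to those lines, and 3 lie past 3 on both axes. Triangles are the 30 genes with overlapping values and squares the 9 with LPS and control at least 1 apart.

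Among the members, 3 exceeded both other groups by more than 3 on the log2 scale. ENSRNOG00000002331, at rank 1, stood at 15.6, 14.8 and 14.8 TPM in control, 13.2, 13.2 and 12.1 TPM in LPS and 201, 201 and 207 TPM in extract libraries. At rank 2, the member's level was 35.3, 32.4 and 32.6 TPM in control, 51.4, 44.1 and 48.4 TPM in LPS and 559, 528 and 523 TPM in extract libraries. The member at rank 3 was scarce outside the extract group, at 2.84, 2.07 and 2.76 TPM in control and 2.24, 1.98 and 1.86 TPM in LPS libraries, against 33.6, 31.0 and 33.2 TPM in extract libraries. In each of the 3, the lowest extract value was at least 10 times the highest value of the other groups. Their LPS sides differed: the LPS values were all below control at rank 1, all above it at rank 2 and overlapped it at rank 3. The extract-control differences were 3.67 ± 0.043 (SE, from the fit to all 9 libraries), 3.96 ± 0.058 and 3.25 ± 0.094 in the order of rank.

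The next tier held 5 members with smaller differences between 2.07 and 2.64. ENSRNOG00000018740, at rank 4, stood at 25.2, 24.9 and 26.8 TPM in control, 23.7, 21.8 and 20.6 TPM in LPS and 169, 159 and 167 TPM in extract libraries. For rank 5 the values were 32.8, 37.5 and 35.3 TPM in control, 26.6, 27.8 and 28.2 TPM in LPS and 167, 154 and 163 TPM in extract libraries. Both of these genes were thus well expressed in every library, and in both the LPS values lay below all control values. The member at rank 6 was listed at 0 TPM in all 6 control and LPS libraries and at 3.31, 3.74 and 3.01 TPM in the extract libraries. It was the only gene of the whole table at 0 in those 6 libraries and reaching 1 TPM in each extract library. No fold is given for it, because its control and LPS means are 0 TPM, and TPM keeps no read depth to bound them. Rank 7 was low but graded, at 1.33, 1.27 and 1.23 TPM in control, 0.97, 0.80 and 1.05 TPM in LPS and 8.25, 9.29 and 8.19 TPM in extract libraries.

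The height of the member at rank 8 rested on 1 library. Its extract values were 22.4, 2.00 and 1.88 TPM, its control values 0, 1.73 and 0 TPM, and all 3 LPS values were 0. The lowest extract value was 1.087 times the highest control value, the narrowest gap of all members, and the standard error of its differences was 0.738, against 0.152 or less in the top 7. With a pseudocount of 0.1 or 5, or a mean of at least 5 TPM, it was no longer a member. Without extract replicate 1 its mean fell under 1 TPM, and it met the rule only where that mean was still taken over all 9 libraries.

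Ranks 9 to 12 had smaller differences between 1.47 and 1.72 and control means under 10 TPM. At rank 9, control libraries held 1.03, 0.68 and 0.54 TPM, LPS libraries 1.05, 1.10 and 1.37 TPM and extract libraries 6.07, 5.70 and 6.66 TPM. Rank 10 showed 0.79, 0.81 and 1.08 TPM in control, 0.57, 0.57 and 0.53 TPM in LPS and 4.35, 4.96 and 4.30 TPM in extract libraries. The LPS values were all above control at rank 9 and all below it at rank 10. Rank 11 had 9.10, 9.99 and 9.91 TPM in control, 6.70, 6.21 and 7.04 TPM in LPS and 30.2, 30.9 and 27.6 TPM in extract libraries. Rank 12 went from 5.26, 5.28 and 5.69 TPM in control to 8.25, 7.68 and 8.10 TPM in LPS and 26.8, 21.9 and 23.4 TPM in extract libraries. It was an intermediate case, with LPS between control and extract and no overlap between any pair of groups.

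From rank 13 on, the smaller difference was 1.4 or less. Rank 13 did not separate LPS from control, with 18.8, 18.3 and 16.5 TPM in control, 18.5, 15.5 and 17.9 TPM in LPS and 49.6, 47.3 and 49.96 TPM in extract libraries. Rank 14 did, at 1.10, 1.39 and 1.8 TPM in control, 0.67, 0.44 and 0.89 TPM in LPS and 5.32, 4.89 and 5.80 TPM in extract libraries. Rank 16 lay on the other side, with 8.40, 6.19 and 6.99 TPM in control, 12.7, 10.5 and 12.4 TPM in LPS and 29.7, 30.8 and 32.4 TPM in extract libraries. These 3 genes show the span of the LPS values that the rule allows, from below control through level with it to above. Rank 17 overlapped between LPS and control, at 57.1, 46.4 and 54.9 TPM in control, 49.4, 40.5 and 38.0 TPM in LPS and 122, 129 and 147 TPM in extract libraries. Rank 18 held 47.7, 39.9 and 44.7 TPM in control, 31.5, 27.1 and 29.2 TPM in LPS and 105, 108 and 111 TPM in extract libraries. Rank 19 held 63.8, 61.9 and 58.8 TPM in control, 53.04, 44.1 and 47.2 TPM in LPS and 154, 153 and 145 TPM in extract libraries. In the latter 2, all LPS values were below all control values.

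The members at ranks 15 and 20 cannot be told apart well, since their TPM was equal in 8 of the 9 libraries. Both were listed at 0.23, 0.21 and 0.32 TPM in control, at 0.73, 0.74 and 0.86 TPM in LPS and at 3.46 and 3.72 TPM in the first 2 extract libraries. They parted in extract replicate 3, at 3.18 and 2.78 TPM. Whether they share sequence or reads was not tested, and the level of each is uncertain.

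**Figure D2:**
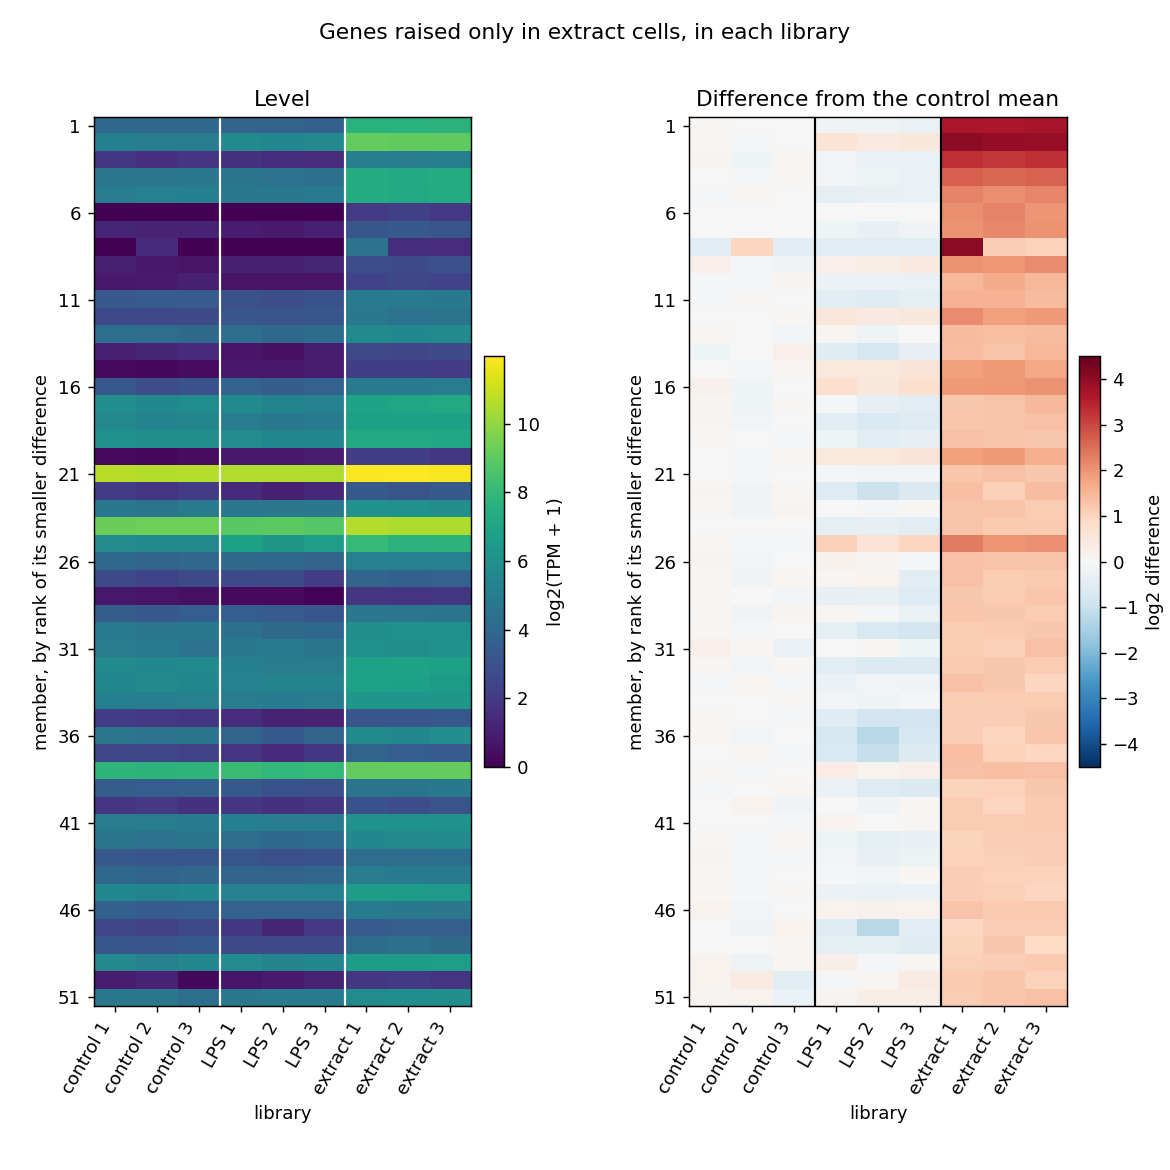
Rows are the 51 members by rank and columns the 9 libraries. Colour gives log2(TPM + 1) on the left and the log2 difference from the gene's control mean on the right. The 3 extract columns are red in every row on the right, the LPS columns are faintly blue or red, and rank 8 stands out with 1 dark extract library.

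The levels of the members spanned the range of expressed genes. Mean control TPM was under 1 in 8 members, 1 to 10 in 14, 10 to 100 in 26 and over 100 in 3. The median member stood at 14.3 TPM in control cells, with medians of 12.6 TPM under LPS and 32.6 TPM under extract. On the linear scale, the median ratio of mean TPM was 2.52 for extract over control and 3.13 for extract over LPS. The median extract-control difference was 1.81 for members under 1 TPM in control, 1.24 at 1 to 10 TPM, 1.21 at 10 to 100 TPM and 1.27 above 100 TPM. Scarce members needed higher ratios to reach the threshold, because 1 TPM is added before the logarithm. Members under 1 TPM in control also reached the mean of 1 TPM over the 9 libraries only through their extract values. At rank 6, for example, the means were 0 TPM in control and LPS and 3.35 TPM in extract libraries. Their larger difference is thus partly set by that filter, and nothing is read from it.

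The 3 abundant members carried most of the summed signal. Rank 21, the most abundant, stood at 1616, 1540 and 1593 TPM in control, 1471, 1466 and 1467 TPM in LPS and 3800, 3984 and 3685 TPM in extract libraries. Rank 24 held 610, 631 and 635 TPM in control, 471, 488 and 450.0 TPM in LPS and 1536, 1429 and 1421 TPM in extract libraries. Rank 38 held 229, 210.4 and 222 TPM in control, 279, 245 and 256 TPM in LPS and 548, 564 and 556 TPM in extract libraries. LPS values lay below control in the first 2 and above it in the third. Together the 51 members took 0.330% ± 0.0074 (SD, n = 3) of the TPM in control, 0.301% ± 0.0066 in LPS and 0.888% ± 0.017 in extract libraries. Without the members at ranks 21 and 24, the other 49 summed to between 1048 and 1139 TPM in control, between 1013 and 1145 TPM in LPS and between 3547 and 3665 TPM in extract libraries.

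Within the limit of 1 set by the rule, more members had lower than higher levels in LPS than in control cells. The LPS mean was below the control mean in 36 of 51 members, above it in 14 and equal in the member listed at 0 in both. That is 70.6% of the members, beside 67.2% of all tested genes. The median LPS-control difference was -0.21 in the members and -0.08 over all tested genes. All LPS values were below all control values in 26 members, where 37.6% of tested genes had this order, and above them in 9, where 12.5% did. The remaining 16 members overlapped. By limma, 9.79% of tested genes were higher and 30.9% lower in LPS than in control cells. The rule used this difference too, so nothing is read from these counts. They also depended on scaling: after rescaling by the median of ratios, 29 of 51 members and 49.5% of tested genes had LPS below control, and the median difference of the members was -0.12.

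On the log2(TPM + 1) scale, the members farthest from level show both sides. Scarce members can differ more in ratio than this scale shows. Ranks 15 and 20 averaged 0.253 TPM in control and 0.777 TPM in LPS libraries, and rank 28 averaged 0.593 and 0.183 TPM. These members were lost with a pseudocount of 0.1. Rank 36 had the lowest LPS-control difference, -0.93, with 25.1, 21.8 and 24.0 TPM in control, 13.4, 9.34 and 13.4 TPM in LPS and 51.7, 47.2 and 57.5 TPM in extract libraries. Rank 47 followed at -0.79, with 4.78, 4.09 and 5.30 TPM in control, 2.80, 1.38 and 2.98 TPM in LPS and 9.77, 11.2 and 11.3 TPM in extract libraries. Rank 37 came next at -0.78, with 4.84, 4.99 and 4.54 TPM in control, 2.61, 1.79 and 2.81 TPM in LPS and 13.7, 10.8 and 10.1 TPM in extract libraries. In all 3 the second LPS library was the lowest of the 9. At the other end stood rank 25, with a difference of 0.91 and 54.4, 49.4 and 48.8 TPM in control, 109, 80.2 and 101 TPM in LPS and 259, 207 and 213 TPM in extract libraries. Rank 16, at 0.66, and rank 2, at 0.50, followed it. Rank 25 would have missed the rule with LPS replicate 2 left out, and rank 36 with LPS replicate 1 or 3 left out.

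**Figure D3:**
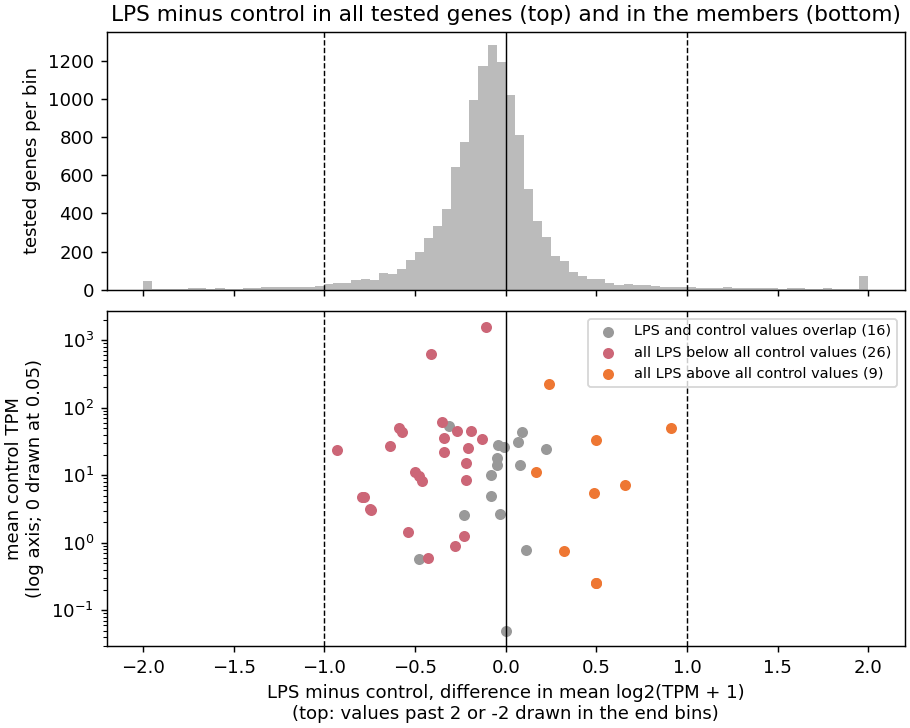
The upper panel counts all tested genes by their LPS-control difference in mean log2(TPM + 1). The lower panel places the 51 members by the same difference and by mean control TPM on a log axis. Members lie on both sides of 0 at all levels, 36 to the left and 14 to the right, within the dashed limits of 1.

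At the border of the rule the cut ran through a continuous series of values. The 5 members just inside, ranks 47 to 51, had smaller differences of 1.041, 1.037, 1.034, 1.034 and 1.013. The 5 genes just outside, which met every other criterion, had 0.994, 0.991, 0.985, 0.97 and 0.967. Rank 51 stood at 26.2, 26.9 and 19.2 TPM in control, 26.4, 28.7 and 28.9 TPM in LPS and 54.1, 57.3 and 61.2 TPM in extract libraries. The first gene outside looked much like it, at 24.9, 28.2 and 23.8 TPM in control, 26.1, 28.6 and 27.7 TPM in LPS and 52.8, 56.2 and 58.0 TPM in extract libraries. How many genes the rule takes depended on the pseudocount: 27 with a pseudocount of 5, of which 24 were among the 51, and 64 with 0.1, of which 43 were.

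Replicates of a group differed somewhat more in the members than over all tested genes. The coefficient of variation was over 20% in 6 members for control, 8 for LPS and 1 for extract libraries. Its highest values were 173.2%, 53.8% and 134.9% in that order. The control and extract values were those of rank 8 and the LPS value that of rank 28, both scarce members. The rule used these values too, and counts over 20% among all tested genes were not computed. The median coefficient of variation over members came to 7.74% for control, 9.31% for LPS and 5.28% for extract libraries, beside 5.17%, 5.80% and 4.67% over all tested genes. In control and LPS cells, the number of members above their group mean differed between replicates. In control replicates 1, 2 and 3, 36, 14 and 30 members lay above their group mean, and in LPS replicates 1, 2 and 3, 39, 13 and 27 did. Matching counts over all tested genes were not computed, and members measured in 1 library are not replicates of it. The median deviation of the members was 0.053 in control replicate 1 and -0.04 in control replicate 2, where all tested genes had medians of 0 and -0.003. It was 0.059 in LPS replicate 1 and -0.053 in LPS replicate 2, where all tested genes had 0.003 and -0.025. All tested genes thus shared part of the shift in LPS replicate 2. In replicate 3 the members had 0.01 in control and 0.001 in LPS libraries, where all tested genes had 0.004 and 0.023. In extract libraries the median deviations of the members were between -0.016 and 0.004.

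Extract libraries left out of the choice gave values that the choice did not use. For this, the whole rule, its mean of 1 TPM included, was applied to the other 8 libraries, a setting chosen after seeing the data. Then 51, 52 and 50 genes met it without extract replicates 1, 2 and 3, and 47, 47 and 48 of these were among the 51 members. The library left out was above all 6 control and LPS values in 51 of 51, 49 of 52 and 50 of 50 of these genes. Its difference from the higher of the control and LPS means was at least 1 in 43, 46 and 43 of them. The median of that difference was 1.24, 1.17 and 1.19 in the library left out, where the extract libraries used for the choice had 1.19, 1.24 and 1.23. One gene chosen without extract replicate 2 lay below that mean in replicate 2, by a log2 difference of -1.29. The control and LPS values in these comparisons were used by the choice, so only the extract side was unused. Matching shares over all tested genes were not computed. For control and LPS libraries left out, the difference is taken from an extract mean that the choice had selected as high, so only the side of the library left out was unused. Control libraries left out lay below all extract values in 56 of 56, 52 of 52 and 54 of 54 chosen genes, and LPS libraries in 53 of 53, 53 of 55 and 54 of 56. The replicates may be technical, so a library left out can largely repeat the others of its group. These counts therefore describe the 9 libraries and are no independent check of the choice.

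**Figure D4:**
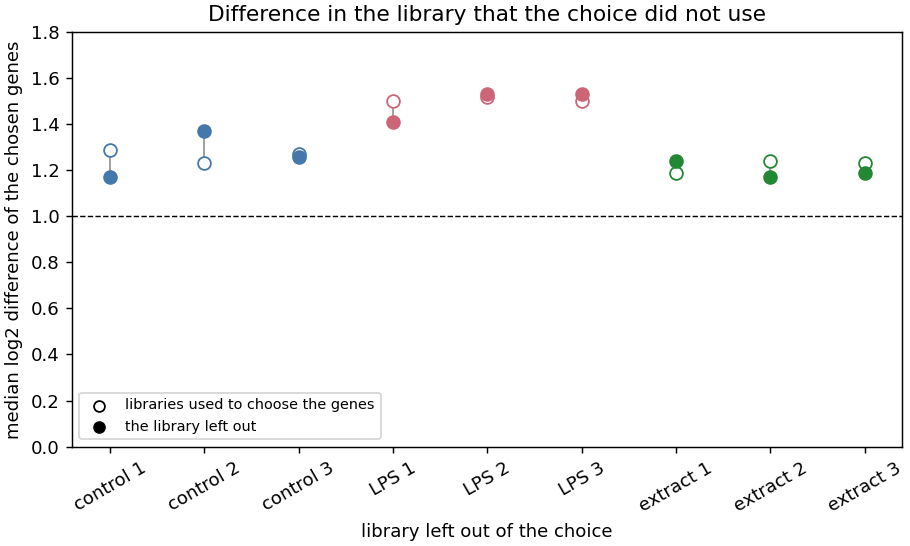
For each of the 9 libraries, the genes were chosen by the rule over the other 8. Open circles give the median log2 difference of the chosen genes in the libraries used (extract minus the higher of control and LPS for extract libraries, extract minus the same group otherwise), and filled circles the same in the library left out, which lies between 1.17 and 1.53.

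The transcript table gave a measure within genes that the rule did not use directly, namely the share of each transcript in its gene's TPM. A rise of 1 transcript moves both the gene level and the shares, so shares are not independent of the choice. A gene can yield several transcripts by alternative starts, splicing or ends, and their levels were estimated separately. The 51 members had 102 transcripts above 0, with a single one in 21 members and at most 8. Of 71 transcripts averaging 1 TPM or more, 58 exceeded both control and LPS by at least 1 on the log2 scale, and 1 had a smaller difference below 0. Transcript levels add up to the gene level that the rule used, so this count was largely set by the choice. The matching share over all transcripts was not computed. Of the 30 members with several transcripts, 24 had the same leading transcript in all groups and 6 another one in control or LPS cells. Some of the 6 rested on near-equal or low levels. At rank 17, the top transcripts took 48.4% and 51.2% of the gene in control libraries. Rank 28 averaged 0.18 TPM in LPS libraries, and no transcript of rank 10 averaged 1 TPM. The matching share over all genes with several transcripts was not computed. In the 30 members with several transcripts, the leading transcript made up a median of 90.7% of the increase in TPM. Its median share of the gene in extract cells was much the same, at 90.1%.

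Shares could be tested in 13 members, those with a mean of at least 5 TPM and a transcript with a mean share between 10% and 90%. A shift of at least 10 points with a limma adjusted p below 0.05 was called in 2 of the 13 in extract versus control, where 0.637% of the 4082 genes tested had such a call. It was called in 1 of 13 in extract versus LPS (0.392% of genes) and in 1 of 13 in LPS versus control (1.25% of genes). The members were chosen by their differences between groups, so the percentages over all genes are not a like comparison. The adjusted p-values of the members' shares carry the same limit. The median absolute shift of the members' transcripts was 2.45 points in extract versus control and 2.83 in extract versus LPS, beside 2.72 and 2.69 over all tested transcripts. In LPS versus control it was higher, at 4.38 points beside 2.68 over all tested transcripts.

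The clearest share change was in ENSRNOG00000018740, where 3 transcripts had a mean of at least 1 TPM. The transcript that led in extract cells took 18.6%, 17.8% and 16.5% of the gene in control, 11.8%, 12.5% and 17.8% in LPS and 46.5%, 47.8% and 46.8% in extract libraries. Its level went from 4.70, 4.43 and 4.44 TPM in control and 2.80, 2.72 and 3.67 TPM in LPS to 78.6, 76.2 and 78.1 TPM in extract libraries, 17.2 times the control mean. A different transcript led in control and LPS cells, at 12.7, 13.1 and 13.5 TPM in control, 13.8, 13.6 and 11.6 TPM in LPS and 63.3, 60.7 and 62.1 TPM in extract libraries. All 3 transcripts were thus higher in extract cells than in every other library, and the leading one by a far higher ratio than the others, at 4.74 and 3.28 times the control mean.

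The share of this leading transcript was 29.4 ± 1.9 points (SE) higher in extract than in control libraries (limma adjusted p = 0.000316) and 33.0 ± 1.9 points higher than in LPS libraries (limma adjusted p = 0.00113). The direction held in 3 of 3 extract libraries. Both calls were kept under all 12 alternatives, with adjusted p between 0.000169 and 0.00892 against control and between 0.000264 and 0.0337 against LPS, and at 0.00892 and 0.0337 with the replicate number as a block. The transcript that led in control and LPS cells fell in share from 51.0% ± 1.2 (SD, n = 3) in control and 58.9% ± 3.1 in LPS to 37.6% ± 0.44 in extract libraries. Its shift of -13.4 points against control (limma adjusted p = 0.0267) was called under 4 of 12 alternatives, with adjusted p between 0.0165 and 0.118. Against LPS the shift was -21.35 points (limma adjusted p = 0.00459) and was called under all 12, with adjusted p between 0.0012 and 0.038. The remaining transcript shifted by -14.2 points against control (limma adjusted p = 0.038), called under 3 of 12, with adjusted p between 0.0242 and 0.156. Against LPS its shift of -9.9 points was not called (limma adjusted p = 0.144). Levels of transcripts that share most of their sequence are divided by the authors' estimation software, and how far that division bears on these shares was not tested.

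**Figure D5:**
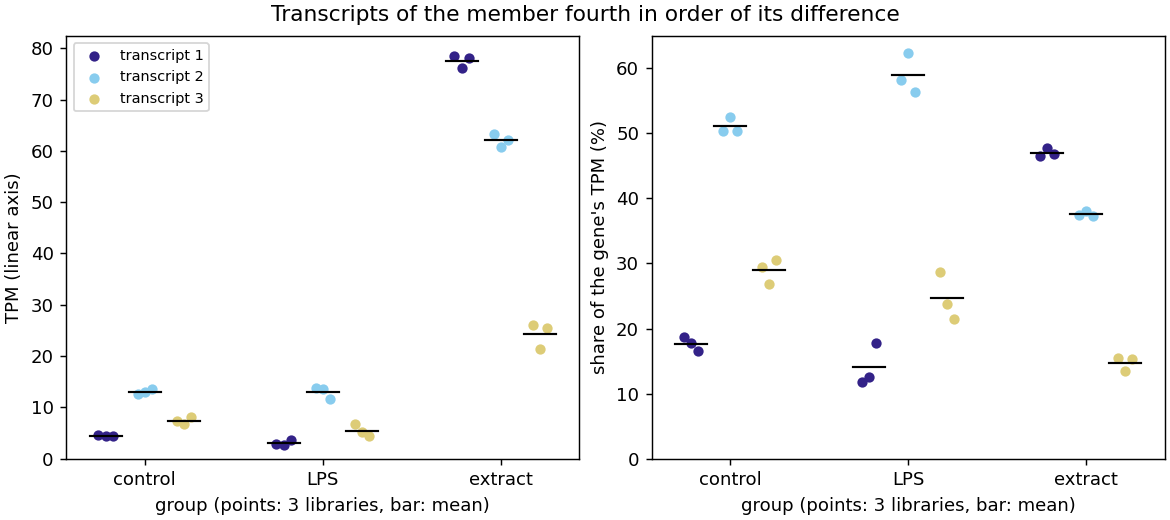
The 3 transcripts of ENSRNOG00000018740 with a mean of at least 1 TPM are shown as TPM on the left and as a share of the gene's TPM on the right. Points are the 3 libraries of a group and bars their mean. Transcript 1 lies lowest in control and LPS libraries and highest in extract libraries on both scales.

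Share calls in other members were less stable. At rank 25, which has 2 transcripts, one rose from 42.0% ± 2.1 (SD, n = 3) of the gene in control to 54.0% ± 0.65 in extract libraries, with 46.8% ± 0.71 in LPS libraries. Its shift of 12.0 ± 1.6 points against control (limma adjusted p = 0.0224) was called under 4 of 12 alternatives, with adjusted p between 0.0127 and 0.121, the highest of these with the replicate block. At rank 29, a transcript went from 33.9% ± 4.1 in control to 59.2% ± 0.82 in LPS libraries, a shift of 25.3 ± 2.7 points (limma adjusted p = 0.00706), and stood at 49.4% ± 4.2 in extract libraries. That call held under 9 of the 11 alternatives that gave a value, with adjusted p between 0.00495 and 0.063. Rank 1, where 2 transcripts took 58.6% ± 3.3 and 41.5% ± 3.3 of the gene in extract libraries, had 60.3% ± 3.4 and 39.7% ± 3.4 in control and 50.1% ± 1.0 and 49.9% ± 1.0 in LPS libraries, so that both its transcripts were several times higher in extract than in either other group.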

How the data were processed

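The authors deposited TPM per gene and per transcript, with 2 decimals and a total of 1000000 a library. Tools listed in the submitters' processing notes are HISAT2 2.1.0, RSEM 1.3.3 and fastp, with no roles or settings. For genome build, annotation and strandedness, the sources used here give nothing. TPM keeps no depth, so read depth is unknown and no counting interval is given. Column names were matched to sample titles. The reference table used here, with 47357 genes, gives no Ensembl identifier for any of them and so could not name the genes; therefore the 45 gene lists and 20 promoter motifs written for this work were not analysed, and no sequence is printed. Members and lists were chosen with earlier results of these data known.

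The rule was applied with Python 3.11.15 and pandas 2.3.3. Standard errors come from limma 3.58.1 (R 4.3.3), 1 mean per group over 9 libraries, on log2(TPM + 1) with trended prior variance, as two-sided tests with 6 residual degrees of freedom and Benjamini-Hochberg adjustment over 12192 genes. No file pairs transcripts with genes, so neighbouring transcripts in file order were joined to the gene whose TPM they add up to in all 9 libraries, with a tolerance of 0.006 TPM per rounded value; 373 gene borders allowed more than 1 solution. Shares were fitted with limma without a trend for all genes of at least 5 TPM. Fits were tested on simulated data. Values in every library are given for ranks 1 to 20, the extremes of LPS versus control and the border; rank 4, ranks 21, 24 and 38 and the share calls were singled out after their values were seen. Alternatives were other pseudocounts, filters and scalings, a replicate block and leaving out each library.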

Additional observations from a re-analysis of the deposited data

How the results depend on the processing

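The number of members, 51, stayed within 1.5 times under every alternative except a pseudocount of 5, which left 27; 22 members were kept under all 15 alternatives, and leaving out 1 library gave 50 to 54, or 50 to 56 with the mean of 1 TPM taken over the 8 libraries left, a setting added after seeing the data. In LPS versus control, 1193 genes were called higher and 3769 lower; median-of-ratios scaling gave 2119 and 2263, and quantile normalization 1945 and 2403. Of called genes, 76.0% were lower as deposited and 51.6% after median-of-ratios scaling. Other counts over all genes stayed within 1.5 times. No pairing of libraries by replicate number is stated, and these values do not settle it. Same-numbered libraries deviated together with correlations between -0.055 and 0.095, and differently numbered ones between -0.11 and 0.089. Between LPS and extract, same-numbered correlations were 0.023, 0.078 and 0.095, and the others lay between -0.086 and 0.005. Control with LPS or with extract showed no such separation. With the replicate block, 2608 genes were higher in extract versus control, 4099 in extract versus LPS and 1105 in LPS versus control. Members with a share call went with it from 2 to 1 in extract versus control and from 1 to 0 in LPS versus control; the cause was not tested. Leaving out a library gave 1 or 2 members in extract versus control and 0 or 1 in LPS versus control, the 0 without LPS replicate 2. Genes of at least 20 TPM gave 0 in LPS versus control, where rank 29 was not tested. The alternatives for pathway genes and promoter motifs could not be run without gene names. Without depth, low members cannot be given a counting error.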

Other observations

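Outside the rule, 9 genes stood at least 1 above both other groups with no overlap but had LPS and control at least 1 apart on the log2 scale, 7 with LPS lower and 2 with LPS higher. The most abundant of them held 376, 406 and 379 TPM in control, 171, 186 and 187 TPM in LPS and 1703, 1639 and 1655 TPM in extract libraries. One with LPS higher went from 4, 2.5 and 2.52 TPM in control to 18.5, 18.9 and 20.4 TPM in LPS and 62.3, 55.8 and 54.7 TPM in extract libraries. These genes were singled out after their values were seen.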
